A study of Mus with 12 samples.

Results

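The collagen chain genes were taken from the 2 deposited gene tables as the rows whose gene name reads Col, a number, a and a number, and which carry an Ensembl mouse transcript. They numbered 44 in each table, out of 87235 rows in the table of the implantation stage (53158 with an Ensembl transcript) and 40787 rows in the table of the labor stage (33589 with an Ensembl transcript). By the protein they encode, 11 were fibrillar chains, 6 were basement membrane chains of collagen IV and 27 were other chains. RNA-seq had been made from the uteri of 12 pregnant ICR mice, an outbred strain, given as 8 weeks old in the series' design text. The whole uterus was collected from 3 mice on each day, embryonic day (E) 0.5 and E4.5 for the implantation stage and E15.5 and E18.5 for the labor stage. The mice carried no transgene and received no treatment, so the groups differed by the day of pregnancy alone as far as the labels go. Levels are given as FPKM, fragments scaled to transcript length and library size, and a log2 fold change is E0.5 relative to E4.5 or E18.5 relative to E15.5.

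Collagens are extracellular matrix proteins whose alpha chains wind around each other in a triple helix, and each chain is the product of its own gene. Fibrillar collagens form the tensile fibrils of connective tissue, with collagen I and collagen III as the bulk of the fibril and the chains of collagens V and XI at its core, where they set how fibrils start and how thick they grow. Collagen IV makes the sheet-like network of basement membranes under epithelium and around vessels, muscle fibers and decidual cells, and the remaining collagens decorate fibrils, form beaded filaments, anchor basement membranes or span the cell membrane. In the pregnant uterus the stroma is remodelled around the implanting embryo, and the myometrium and its matrix grow before labor.

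Smooth muscle, stromal and epithelial markers were present in all 12 libraries. The 6 libraries of the implantation stage held 58020989 to 70906881 counts, while the labor table gave FPKM with no counts, so its depth is unknown. E4.5 replicate 3 stood apart from the other libraries of its stage. Its 7 ovary markers summed to 457 FPKM against 7.51 to 9.71 in the other 5 libraries, its 2 oviduct markers to 79.4 FPKM against 3.63 to 14.8, and its 7 smooth muscle markers to 206 FPKM against 798 to 1214. Its Spearman correlation with the other E4.5 libraries, across rows that are not independent replicates, was 0.711 and 0.725, while the pair of other E4.5 libraries reached 0.910. At the labor stage, E15.5 replicate 1 had a decidua marker sum of 1374 FPKM against 56.9 to 103 in the other 5 libraries, of which Prl8a2, a prolactin family gene of the decidua, gave 1342 FPKM. Of the other 4 decidua markers there, Bmp2 (1.02 FPKM) and Wnt4 (1.006 FPKM) lay within the range of the other libraries, and Gja1 (16.4 FPKM) and Hoxa11 (13.7 FPKM) were the highest of the 6. The part of these tissues in the collagen values was not tested. In a bulk sample, fewer cells of a type and less RNA per cell cannot be told apart, and p-values here rest on the spread among 3 mice.

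**Figure D1:**
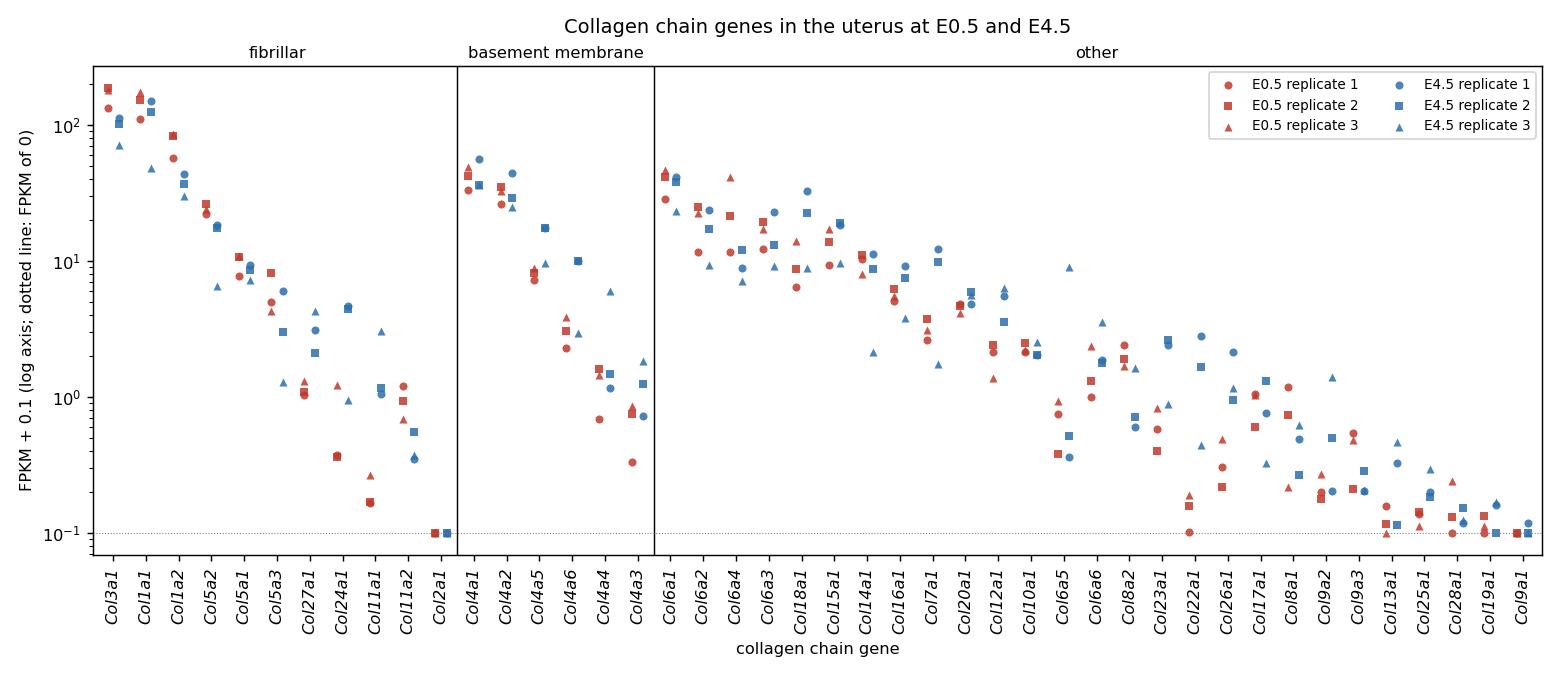
Level of each of the 44 collagen chain genes in the 6 libraries of the implantation stage, as FPKM + 0.1 on a log axis, with E0.5 in red and E4.5 in blue, 1 point per mouse, and genes ordered by mean level within their class. The chains span from Col3a1 and Col1a1 at 131 and 126 FPKM on average to Col2a1 at 0 in all 6, and the E4.5 points lie above the E0.5 points for the tested genes Col4a5, Col27a1, Col11a1, Col12a1, Col22a1, Col23a1 and Col26a1.

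At the implantation stage the collagen transcripts were dominated by a few fibrillar chains. Col3a1, the only chain of collagen III, averaged 131 FPKM over the 6 libraries and Col1a1, the more abundant chain of collagen I, averaged 126 FPKM, and these values overlapped between the genes. Col1a2, the other chain of collagen I, averaged 55.9 FPKM, followed by the basement membrane chains Col4a1 with 41.9 FPKM and Col4a2 with 31.9 FPKM and by Col6a1 with 36.4 FPKM. In all, 13 chains averaged at least 10 FPKM, 16 lay between 1 and 10 FPKM and 15 lay under 1 FPKM. Col2a1, the cartilage collagen, had 0 counts in all 6 libraries, where a count of 0 allows up to 3 counts in a library by counting error alone. Another 4 chains, Col9a1, Col19a1, Col25a1 and Col28a1, did not reach the mean of 0.1 FPKM needed for a test, with 0 to 0.192 FPKM in single libraries.

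Between E0.5 and E4.5, 4 of the 39 tested chains were higher at E0.5 and 9 were lower by the study's criterion, a log2 fold change of 1 or more in either direction together with an unadjusted p under 0.05. This is 33.3% of the tested chains, beside 12.2% of all 59732 tested rows, of which 6.37% were higher and 5.82% lower. Of the 13 chains, Col11a1 and Col22a1 passed the filter on low values through the E4.5 libraries alone, and 11 had at least 0.1 FPKM on average on both days. With Benjamini-Hochberg adjustment over all rows, 1 chain, Col11a1, passed an adjusted p of 0.05 in edgeR's quasi-likelihood test, beside 1.22% of all rows. The median log2 fold change of the tested chains was -0.23, against -0.01 over all tested rows and -0.13 over the rows with an Ensembl transcript. Without E4.5 replicate 3 the chains meeting the criterion numbered 3 higher and 11 lower, and 10 passed the adjusted p, while over all 59175 rows of that fit 7.9% were higher, 6.37% were lower and 6.19% passed the adjusted p.

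Among the fibrillar chains, 2 met the criterion as higher at E0.5, 3 as lower, beside 6.37% and 5.82% of all tested rows, and 5 did not meet it. Col1a2 on the higher side was abundant, while Col11a2 on that side and the chains on the lower side were scarce. Col1a2 (chr6:4504814-4541594, plus strand, build GRCm38 as for all positions here) had 56.6, 83.4 and 85.8 FPKM in the E0.5 mice and 43.2, 36.9 and 29.8 FPKM in the E4.5 mice. All E0.5 libraries lay above all E4.5 libraries. The log2 fold change was 1.04 (standard error, SE, 0.26, edgeR adjusted p = 0.118), and it fell under 1 without E0.5 replicate 2 (0.96), E0.5 replicate 3 (0.93) or E4.5 replicate 3 (0.89). Col1a1, its partner in collagen I, had 110 to 174 FPKM at E0.5 against 48.0 to 149 FPKM at E4.5, groups that overlapped, with a log2 fold change of 0.44 (SE 0.44). The ratio of Col1a1 to Col1a2 was therefore 1.95, 1.83 and 2.03 in the E0.5 libraries against 3.46, 3.34 and 1.61 in the E4.5 libraries, so E4.5 replicate 3 lay below the E0.5 range and the other E4.5 libraries above it.

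Col3a1 had 132 to 187 FPKM at E0.5 against 112, 101 and 70.9 FPKM at E4.5. The groups did not overlap, but its log2 fold change of 0.82 (SE 0.27, edgeR adjusted p = 0.199) did not reach 1. Col5a2, a chain of the fibril core, likewise kept its groups apart, with 21.9 to 26.1 FPKM at E0.5 against 6.37 to 18.2 FPKM at E4.5, and a log2 fold change of 0.78 (SE 0.40). The other collagen V chains overlapped between the days, Col5a1 with 9.65 ± 1.81 against 8.21 ± 1.05 FPKM (SD, n = 3) and Col5a3 with 5.67 ± 2.07 against 3.33 ± 2.39 FPKM (SD, n = 3), and Col5a3 would meet the criterion without E4.5 replicate 1 (1.52). Col11a2, a chain of collagen XI, was the other fibrillar chain that met the criterion as higher at E0.5. It measured 1.10, 0.825 and 0.584 FPKM at E0.5 against 0.248, 0.452 and 0.272 FPKM at E4.5, giving a log2 fold change of 1.38 (SE 0.35, edgeR adjusted p = 0.121). The criterion held for Col11a2 with each of the 6 libraries left out in turn, and it was lost in limma on log2(FPKM + 0.1), at 1.14.

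Col11a1, the other core chain of collagen XI, went the opposite way and was the only chain past the adjusted p in edgeR's test. Its row (chr3:114030540-114220718, plus strand) held 79, 74 and 204 counts in the E0.5 libraries against 1140, 1238 and 3386 counts in the E4.5 libraries, which corresponds to 0.0646, 0.0688 and 0.164 FPKM against 0.939, 1.06 and 2.93 FPKM. Every E4.5 library lay above every E0.5 library. Its log2 fold change was -4.01 (SE 0.61) and the edgeR adjusted p was 0.0409. With each library left out in turn it ran from -4.59 to -3.33, and the adjusted p, from 0.00911 to 0.196, was under 0.05 only without E4.5 replicate 3. In limma on log2(FPKM + 0.1) no chain passed the adjusted p, and in DESeq2 more chains did.

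Col24a1 and Col27a1, which encode a structurally distinct pair of fibrillar collagens, were also lower at E0.5. Col27a1 (chr4:63214004-63333749, plus strand) had 0.931, 0.989 and 1.19 FPKM at E0.5 against 2.97, 2.0 and 4.13 FPKM at E4.5. Its groups did not overlap, and its log2 fold change was -1.53 (SE 0.29, edgeR adjusted p = 0.0618). Col24a1 (chr3:145292199-145552011, plus strand) had 0.272, 0.261 and 1.12 FPKM at E0.5 against 4.55, 4.32 and 0.850 FPKM at E4.5. Here 1 library of each day crossed into the range of the other, and the log2 fold change of -2.56 (SE 0.84, edgeR adjusted p = 0.196) lost the criterion without E0.5 replicate 1 (-2.22), E0.5 replicate 2 (-2.22) or E4.5 replicate 1 (-2.18). Together, Col11a1, Col24a1 and Col27a1 made up 0.377%, 0.281% and 0.512% of the summed fibrillar FPKM in the E0.5 libraries against 2.44%, 2.48% and 4.61% in the E4.5 libraries.

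The 6 basement membrane chains all had negative fitted values, meaning lower at E0.5, and 1 of them met the criterion as lower, beside 5.82% of all tested rows. Their median log2 fold change was -0.97, and it was -0.48 without E4.5 replicate 3. Without E0.5 replicate 1 or E4.5 replicate 1 the values of Col4a1 (0.12 and 0.25) and Col4a2 (0.046 and 0.24) were positive. Col4a1 and Col4a2, which form the collagen IV found in nearly every basement membrane, overlapped between the days, at 41.4 ± 8.04 against 42.5 ± 11.4 FPKM and at 31.0 ± 4.54 against 32.8 ± 10.3 FPKM (SD, n = 3), with log2 fold changes of -0.04 and -0.09 (SEs 0.28 and 0.29). Col4a6 (chrX:141165403-141474076, minus strand), a chain of smooth muscle and epithelial basement membranes, met the criterion. It had 2.17, 2.93 and 3.75 FPKM at E0.5 against 9.86, 9.93 and 2.86 FPKM at E4.5, so E4.5 replicate 3 lay within the E0.5 range. For Col4a6 the log2 fold change was -1.36 (SE 0.50, edgeR adjusted p = 0.240), and the criterion was lost without E0.5 replicate 1 (-1.16), E0.5 replicate 2 (-1.35), E4.5 replicate 1 (-1.07) or E4.5 replicate 2 (-1.15).

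Col4a5, the partner of Col4a6 in those membranes, had 7.08, 8.07 and 8.78 FPKM at E0.5 against 17.2, 17.3 and 9.53 FPKM at E4.5. The groups did not overlap, and the log2 fold change of -0.88 (SE 0.28, edgeR adjusted p = 0.184) stayed under the minimum size. Without E4.5 replicate 3, Col4a5 reached -1.13 (edgeR adjusted p = 0.0111) and Col4a6 reached -1.76 (edgeR adjusted p = 0.0106). Col4a3 and Col4a4, the chains of the kidney and lung type of collagen IV, were scarce. Col4a3 had 0.231 to 0.749 FPKM at E0.5 against 0.623 to 1.72 FPKM at E4.5, with a log2 fold change of -1.06 (SE 0.52) that did not meet the criterion and would do so without E4.5 replicate 1 (-1.35). Col4a4 had 0.583 to 1.5 FPKM at E0.5 against 1.06, 1.36 and 5.93 FPKM at E4.5, and its log2 fold change of -1.23 (SE 0.70) was -0.08 without E4.5 replicate 3.

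**Figure D2:**
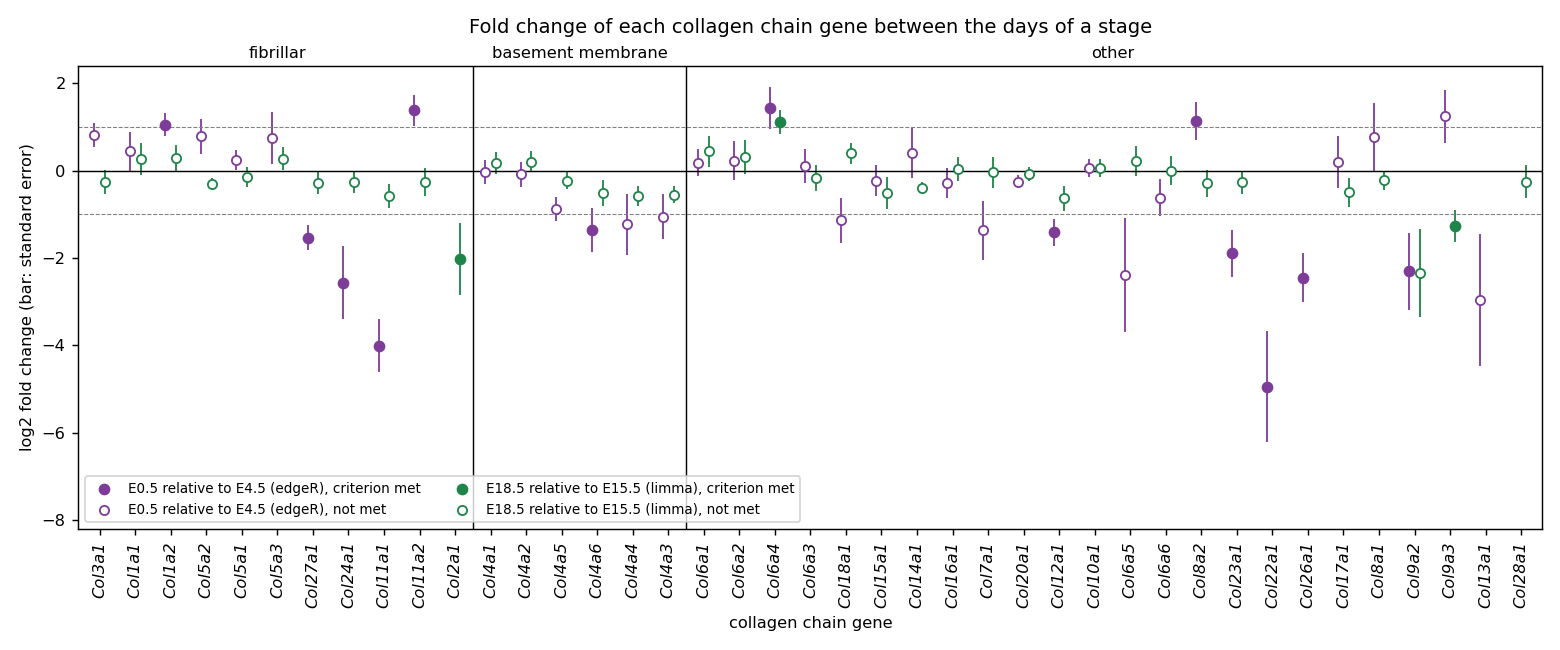
Log2 fold change of each tested collagen chain gene, E0.5 relative to E4.5 from edgeR in purple and E18.5 relative to E15.5 from limma in green, with bars for the standard error and filled points for chains that met the study's criterion. Dashed lines mark a log2 fold change of 1 in either direction. The purple points spread from -4.95 for Col22a1 to 1.43 for Col6a4, while most green points lie within 1 of 0.

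Of the 23 tested chains outside these classes, 2 were higher at E0.5 by the criterion, 5 were lower, beside 6.37% and 5.82% of all tested rows, and 16 did not meet it. The beaded filament chains of collagen VI were represented by 6 genes. Col6a1, Col6a2 and Col6a3, which assemble into the common collagen VI, overlapped between the days, with means at E0.5 and E4.5 of 38.6 and 34.2 FPKM, 19.5 and 16.7 FPKM, and 16.1 and 14.8 FPKM, and log2 fold changes of 0.18, 0.22 and 0.11. Col6a4 (chr9:105989454-106096783, minus strand), which encodes an alternative chain related to the one of Col6a3, had 11.5, 21.1 and 41.6 FPKM at E0.5 against 8.80, 11.9 and 7.03 FPKM at E4.5. The E0.5 mice spread widely, with E0.5 replicate 3 highest and E0.5 replicate 1 just below E4.5 replicate 2. The log2 fold change was 1.43 (SE 0.47, edgeR adjusted p = 0.199), and the criterion was lost without E0.5 replicate 3 (0.83) or E4.5 replicate 1 (1.44, with a p above the threshold). Its neighbours Col6a5 and Col6a6 did not meet the criterion. Col6a5 had 0.258 to 0.828 FPKM in 5 libraries and 8.94 FPKM in E4.5 replicate 3, and its log2 fold change of -2.40 became 0.79 without that library and -2.96, meeting the criterion, without E4.5 replicate 1. Col6a6 had 0.889 to 2.26 FPKM at E0.5 against 1.65 to 3.42 FPKM at E4.5, with a log2 fold change of -0.63 that met the criterion only without E0.5 replicate 3 (-1.11).

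Among the fibril-associated chains, which sit on the surface of fibrils, 3 of 7 tested were lower at E0.5 and none was higher by the criterion in edgeR's test, beside 5.82% and 6.37% of all tested rows, and 1 of the 3, Col22a1, passed the filter on low values through E4.5 alone. Col12a1 (chr9:79598991-79718720, minus strand), found on collagen I fibrils of tissues under load, had 2.03, 2.30 and 1.28 FPKM at E0.5 against 5.44, 3.45 and 6.21 FPKM at E4.5. The groups did not overlap, and the log2 fold change was -1.42 (SE 0.31, edgeR adjusted p = 0.0869). Col14a1, which shares its place on the fibril, overlapped with 9.62 ± 1.59 against 7.25 ± 4.69 FPKM (SD, n = 3) and a log2 fold change of 0.39. The ratio of Col12a1 to Col14a1 was 0.164 to 0.212 in the E0.5 libraries against 0.488, 0.402 and 3.04 in the E4.5 libraries. Col22a1 (chr15:71795795-72034227, minus strand), known from the junctions between muscle and tendon, held 2, 39 and 72 counts at E0.5 and 2105, 1158 and 253 counts at E4.5, or 0.0014, 0.056 and 0.0896 FPKM against 2.69, 1.54 and 0.338 FPKM. Its groups did not overlap, and its log2 fold change was -4.95 (SE 1.26, edgeR adjusted p = 0.12).

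Col9a2, a chain of the collagen IX that coats cartilage fibrils, had 0.0979, 0.0774 and 0.171 FPKM at E0.5 against 0.103, 0.395 and 1.3 FPKM at E4.5, groups that overlapped. Its log2 fold change was -2.31 (SE 0.88, edgeR adjusted p = 0.254), and it was -1.09 without E4.5 replicate 3, the library with the highest value. The criterion was also lost without E0.5 replicate 1 (-2.20), E0.5 replicate 2 (-2.11) or E0.5 replicate 3 (-2.74), and in limma on log2(FPKM + 0.1) (-1.29). Col9a3 had 0.110 to 0.441 FPKM at E0.5 against 0.103 to 0.186 FPKM at E4.5, with a log2 fold change of 1.24 (SE 0.61) that met the criterion only without E0.5 replicate 2 (1.64). Col16a1 overlapped at 5.48 ± 0.549 against 6.67 ± 2.73 FPKM (SD, n = 3), giving a log2 fold change of -0.29. The row of Col20a1 also holds Arfgap1, a gene for a protein of the Golgi, so its 4.02 to 5.83 FPKM cannot be assigned to the collagen and it was left out of all sums. The Col3a1 row also carries the name Gm47302 in this table and AC125167.1 in the labor table, and the Col6a1 row of the labor table carries AC168276.1. These rows were kept in the sums and ratios, and the share of the other names in their values is not known.

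Of the 3 tested transmembrane chains, Col23a1 met the criterion. It had 0.480, 0.299 and 0.729 FPKM at E0.5 against 2.30, 2.51 and 0.783 FPKM at E4.5. The groups did not overlap, though E0.5 replicate 3 and E4.5 replicate 3 lay close together, and the log2 fold change was -1.89 (SE 0.54, edgeR adjusted p = 0.148). Col26a1, the gene of a little-studied collagen, had 0.204, 0.116 and 0.387 FPKM at E0.5 against 2.01, 0.840 and 1.05 FPKM at E4.5, with groups that did not overlap and a log2 fold change of -2.45 (SE 0.56, edgeR adjusted p = 0.0936). Col13a1 and Col17a1, the other transmembrane chains tested, lay under 1 FPKM on average and did not meet the criterion, at -2.97 (SE 1.52) and 0.20 (SE 0.59). Col13a1 passed the filter through E4.5 alone and would meet the criterion without E4.5 replicate 2 (-3.52) or in DESeq2 (-3.0).

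Col8a2, a chain of the short-chain network collagen VIII of vessels and Descemet's membrane, was the remaining chain that met the criterion as higher at E0.5. It had 2.30, 1.78 and 1.57 FPKM at E0.5 against 0.498, 0.604 and 1.52 FPKM at E4.5, where replicate 3 was close to the E0.5 range. The log2 fold change was 1.14 (SE 0.44, edgeR adjusted p = 0.255), it was 1.76 (edgeR adjusted p = 0.0131) without E4.5 replicate 3, and the criterion was lost with any of the other 5 libraries left out (0.87 to 1.24). Its partner Col8a1, at 0.607 ± 0.479 against 0.356 ± 0.176 FPKM (SD, n = 3), and the third short-chain gene Col10a1, at 2.18 ± 0.192 against 2.10 ± 0.295 FPKM (SD, n = 3), did not meet the criterion.

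Of the chains that link basement membranes to the stroma none met the criterion or had an unadjusted p under 0.05 in edgeR's test, while Col7a1 (-1.36) and Col18a1 (-1.13) met the criterion in DESeq2. Col7a1, which makes the anchoring fibrils under epithelium and shares its row with the microRNA gene Mir711, had 2.49, 3.65 and 2.97 FPKM at E0.5 against 12.1, 9.70 and 1.63 FPKM at E4.5. Col18a1, the basement membrane collagen from which endostatin is cut, had 6.36, 8.66 and 13.8 FPKM at E0.5 against 32.2, 22.2 and 8.72 FPKM at E4.5. In both genes E4.5 replicate 3 lay at or under the level of the E0.5 mice while the other E4.5 libraries lay above all of them. The log2 fold changes were -1.37 (SE 0.67) for Col7a1 and -1.14 (SE 0.52) for Col18a1 and did not meet the criterion, which both met without E4.5 replicate 3, at -1.86 (edgeR adjusted p = 0.00653) and -1.52 (edgeR adjusted p = 0.0517). Col18a1 also met it without E0.5 replicate 3 (-1.5). Col15a1, which is closely related to Col18a1, overlapped at 13.2 ± 3.95 against 15.6 ± 5.21 FPKM (SD, n = 3), giving a log2 fold change of -0.23.

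Of the 13 chains that met the criterion, 7 did so with each library left out in turn, namely Col11a1, Col11a2, Col12a1, Col22a1, Col23a1, Col26a1 and Col27a1. Without E4.5 replicate 3 the 10 chains past the adjusted p in edgeR's test were Col11a1 (0.00911), Col22a1 (0.0252), Col23a1 (0.0178), Col24a1 (0.0414), Col26a1 (0.0454) and Col27a1 (0.0287), all lower at E0.5, together with Col4a5, Col4a6, Col7a1 and Col8a2 with the values given above, beside 6.19% of all rows in that fit against 1.22% with all 6 libraries. By level, of the 13 chains with at least 10 FPKM on average, 2 met the criterion, both higher at E0.5, beside 15.6% of all tested rows at that level. Of the 16 chains between 1 and 10 FPKM, 6 met it, of which 5 were lower, beside 11.1% of rows. Of the 10 tested chains under 1 FPKM, 5 met it, of which 4 were lower at E0.5, beside 13.6% of rows. Among these 5, Col11a1 and Col22a1 passed the filter on low values through the E4.5 libraries alone. The other 3 had at least 0.1 FPKM on average on both days. No test was made against level. Across the tested chains, 5 had all E0.5 libraries above all E4.5 libraries and 7 had them all below, beside 12.8% and 12.5% of all tested rows.

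The make-up of the collagen transcripts differed between the days of the implantation stage even though their sum overlapped. The summed FPKM of the chains, without Col20a1, was 513, 719 and 764 in the E0.5 libraries against 673, 554 and 354 in the E4.5 libraries. Fibrillar chains held 65.5%, 65.4% and 63.2% of the sum at E0.5 and 51.5%, 53.8% and 48.5% at E4.5. Basement membrane chains held 13.5%, 12.5% and 12.6% at E0.5 and 19.1%, 17.05% and 22.9% at E4.5. The basement membrane sum itself overlapped, at 69.1 to 96.0 FPKM at E0.5 against 81.0 to 129 FPKM at E4.5, and so did the fibrillar sum, at 336 to 483 FPKM at E0.5 against 172 to 346 FPKM at E4.5. The other chains held 21.0%, 22.1% and 24.3% at E0.5 and 29.4%, 29.2% and 28.7% at E4.5. None of the 3 shares overlapped between the days, with or without E4.5 replicate 3, and no test was made of sums over the chains. The ratio of Col3a1 to Col1a1 was 1.20, 1.23 and 1.04 at E0.5 and 0.751, 0.822 and 1.48 at E4.5, so it was lower in the E4.5 libraries other than replicate 3, and higher in that library, than in all E0.5 libraries. Over the same libraries the 5 endothelial markers summed to 18.8 to 21.5 FPKM at E0.5 against 29.2 to 53.7 FPKM at E4.5, with 3 of 5 (Cdh5, Kdr and Emcn) lower at E0.5 by the criterion. The 6 epithelial markers summed to 218 to 259 FPKM at E0.5 against 72.7 to 153.4 FPKM at E4.5, and the 8 stromal markers to 188 to 280 FPKM and 126 to 185.4 FPKM. The stromal list went both ways, with Dcn (1.55) and Lum (1.5) higher at E0.5 by the criterion, Hand2 (-2.83) and Thy1 (-2.60) lower, and a median log2 fold change of -0.12. The 5 decidua markers summed to 19.3 to 25.6 FPKM at E0.5 against 40.4 to 121 FPKM at E4.5. Bmp2 (-3.44, edgeR adjusted p = 0.0187) and Gja1 (-2.82) were lower at E0.5 by the criterion. Wnt4 (0.17), Hoxa11 (-0.58) and Prl8a2, above 0 in E4.5 replicate 1 alone, did not meet it. Gja1 gave 108 FPKM of the sum in E4.5 replicate 3, and Hoxa11 gave 35.7 FPKM of the sum in E4.5 replicate 2. Of the 3 macrophage markers Adgre1 (1.10) and Csf1r (1.88, edgeR adjusted p = 0.0449) were higher at E0.5. Of the 7 markers of parietal endoderm and yolk sac Lama1 (-5.74) and Ttr were lower, and Afp was at 0 in all 6 libraries. The sum of that list overlapped, at 95.2 to 140 FPKM at E0.5 against 101 to 227 FPKM at E4.5. The part of all these markers in the collagen shares was not tested.

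**Figure D3:**
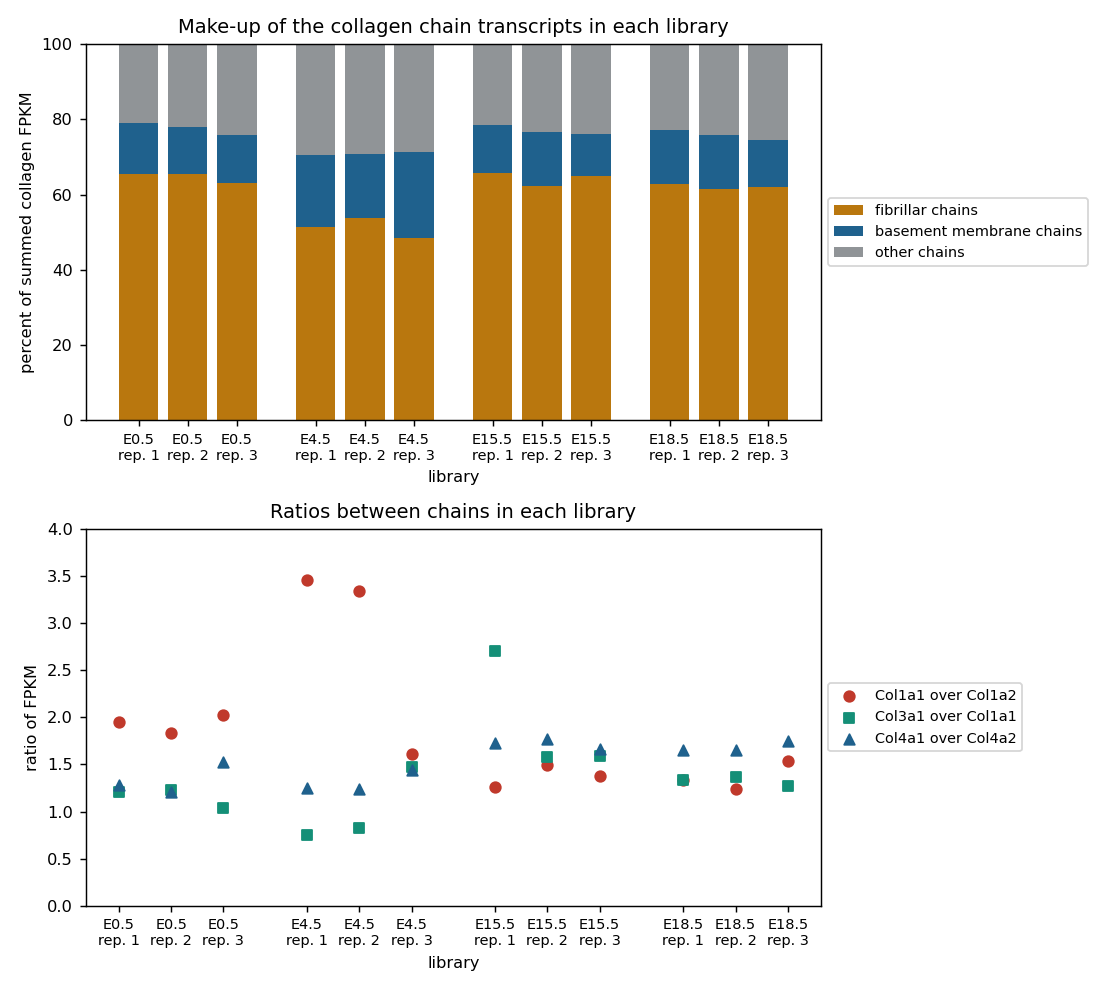
Upper panel, percent of the summed collagen chain FPKM (Col20a1 left out) held by fibrillar, basement membrane and other chains in each of the 12 libraries. Lower panel, the ratio of FPKM between chains of collagens I, III and IV in the same libraries. Fibrillar chains take 63.2% to 65.5% at E0.5 and 48.5% to 53.8% at E4.5, and in the lower panel the ratio of Col1a1 to Col1a2 stands at 3.46 and 3.34 in E4.5 replicates 1 and 2.

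**Figure D4:**
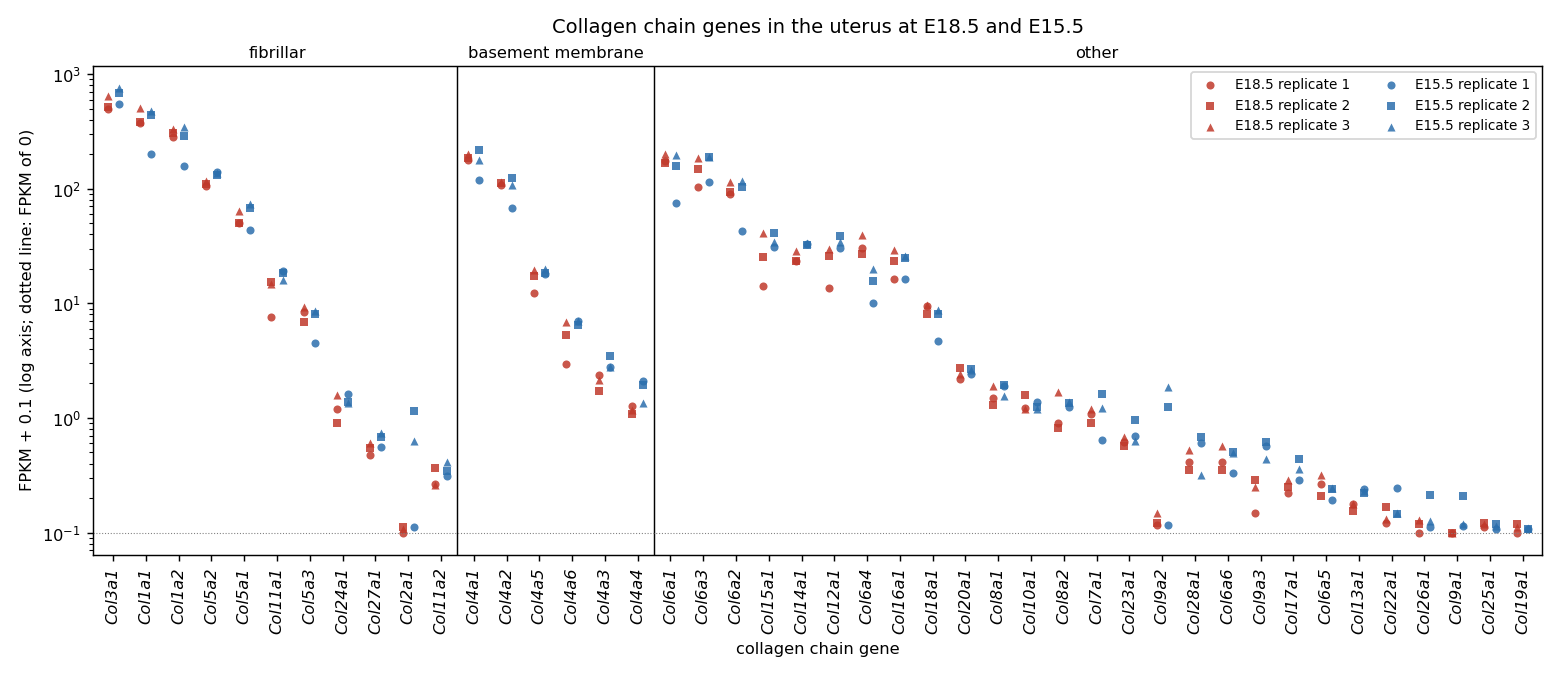
Level of each of the 44 collagen chain genes in the 6 libraries of the labor stage, as FPKM + 0.1 on a log axis, with E18.5 in red and E15.5 in blue, 1 point per mouse, and genes ordered by mean level within their class. Points of the days lie together for most chains, the E18.5 points of Col6a4 lie above the E15.5 points, and Col2a1 and Col9a2 are high in E15.5 replicates 2 and 3 only.

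At the labor stage few collagen chains differed between the days. Of 38 tested chains, 1 was higher at E18.5 and 2 were lower by the criterion, which is 7.89% beside 6.05% of all 30928 tested rows (3.11% higher and 2.93% lower), and a share this near the background does not set the chains apart. No chain passed an adjusted p of 0.05 in limma, beside 0.0259% of all rows, and 6 chains had an unadjusted p under 0.05 in limma, beside 12.2% of all rows. The median log2 fold change was -0.24, against 0.02 over all tested rows. The chains not tested were Col9a1, Col13a1, Col19a1, Col22a1, Col25a1 and Col26a1, with 0 to 0.142 FPKM in single libraries.

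Col6a4, which was higher at E0.5 than at E4.5, was the chain that met the criterion as higher at E18.5. It had 9.98, 15.6 and 20.01 FPKM in the E15.5 mice and 30.2, 26.6 and 39.4 FPKM in the E18.5 mice, so the groups did not overlap. The log2 fold change was 1.11 (SE 0.28, limma adjusted p = 0.199), and it dropped under 1 without E15.5 replicate 1 (0.84) or E18.5 replicate 3 (0.95). The ratio of Col6a4 to Col6a3 was 0.0832 to 0.106 at E15.5 and 0.180 to 0.291 at E18.5. Col6a1, Col6a2 and Col6a3 themselves overlapped, at 143 ± 62.5 against 181.02 ± 18.9 FPKM, 87.2 ± 39.6 against 99.3 ± 13.3 FPKM and 163 ± 42.7 against 146 ± 41.4 FPKM for E15.5 against E18.5 (SD, n = 3). The 6 epithelial markers summed to 202 to 443 FPKM at E15.5 against 641 to 897 FPKM at E18.5. The 5 trophoblast markers with a row summed to 3.73 to 34.8 FPKM at E15.5 against 41.5 to 72.9 FPKM at E18.5. Among these, Tpbpa met the criterion as higher at E18.5 (4.02, limma adjusted p = 0.0788). Prl2c2 (2.16), Prl3b1 (-0.36) and Prl3d1 (-1.30) did not meet it. The part of both lists in the Col6a4 values was not tested.

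The chains lower at E18.5 by the criterion were cartilage-type collagens at low levels. Col9a3 had 0.471, 0.515 and 0.335 FPKM at E15.5 against 0.0495, 0.189 and 0.149 FPKM at E18.5, with no overlap, and a log2 fold change of -1.28 (SE 0.37, limma adjusted p = 0.249) that was -0.996 without E18.5 replicate 1, where the criterion was lost. With a pseudocount of 1 it was -0.35 and also lost the criterion. Col2a1 had 0.0112, 1.04 and 0.531 FPKM at E15.5 against 0, 0.011 and 0.0069 FPKM at E18.5. E15.5 replicate 1 was thus near the E18.5 level, and Col2a1 passed the filter through E15.5 alone. Its log2 fold change was -2.03 (SE 0.83, limma adjusted p = 0.402) and lost the criterion with any single library other than E15.5 replicate 1 left out (-2.06 to -1.32) or with a pseudocount of 1 (-0.54).

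Col9a2 showed the same pattern over the mice as Col2a1, with 0.0163, 1.15 and 1.78 FPKM at E15.5 against 0.0169, 0.0215 and 0.0465 FPKM at E18.5. Col9a2 also passed the filter through E15.5 alone. It did not meet the criterion, at -2.34 (SE 1.0), with a p just above the threshold, and did so without E15.5 replicate 1, at -3.58, where Col2a1 reached -3.00. The 8 cartilage and bone markers were mixed over the same E15.5 mice. Matn3 had 0.0112, 0.116 and 0.0513 FPKM and Comp had 0.0465, 0.197 and 0.127 FPKM, both lowest in E15.5 replicate 1 as were Col2a1 and Col9a2, and Sox9 was lowest there too. Cnmd was highest there at 1.02 FPKM, against 0.164 and 0.0549 FPKM. Acan, the cartilage proteoglycan, had 0 to 0.0559 FPKM, Ibsp had 0 to 0.0575 FPKM, and Matn1 and Bglap were listed at 0. The list summed to 1.41 to 1.77 FPKM at E15.5 against 3.25 to 6.05 FPKM at E18.5, with Sox9 as the highest of them at E18.5. Sox9 alone of the list met the criterion, as higher at E18.5 (2.04, SE 0.53, limma adjusted p = 0.214), unlike Col2a1 and Col9a3. Among parietal endoderm and yolk sac markers, Afp, Ttr and Apoa4 were also lowest in E15.5 replicate 1 (0.366, 0.178 and 0 FPKM), and Lama1 was highest there (4.63 FPKM). At E18.5, unlike Col2a1 and Col9a2, Afp had 71.8 to 427 FPKM, Ttr 1.47 to 7.70 FPKM and Apoa4 12.7 to 78.6 FPKM. The part of these lists in the collagen values was not tested.

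Of the 17 chains with at least 10 FPKM on average at the labor stage, Col6a4 alone met the criterion in limma, and the fibrillar chains among them did not. Col3a1 had 543 to 758 FPKM at E15.5 against 498 to 640 FPKM at E18.5 (log2 fold change -0.26), Col1a1 had 201 to 477 and 373 to 503 FPKM (0.26) and Col1a2 had 159 to 347 and 281 to 329 FPKM (0.27). E15.5 replicate 1, the library with the high Prl8a2 value, was the lowest of the 6 for Col1a1, Col1a2, Col6a1 and Col6a2, and without it Col1a1 stood at -0.13 and Col1a2 at -0.06. Among the fibril core chains, Col5a1 had 61.4 ± 15.6 against 54.5 ± 7.72 FPKM, Col5a2 had 136 ± 4.97 against 110 ± 6.16 FPKM and Col5a3 had 6.94 ± 2.23 against 8.13 ± 1.23 FPKM (SD, n = 3). Col5a2 kept its groups apart, with every E18.5 mouse below every E15.5 mouse, at a log2 fold change of -0.30 (SE 0.14). Col11a1 did so too, at 17.9 ± 1.63 FPKM at E15.5 against 12.5 ± 4.30 FPKM at E18.5 (SD, n = 3) and a log2 fold change of -0.57 (SE 0.27). Col24a1 overlapped at 1.35 ± 0.148 against 1.13 ± 0.341 FPKM (SD, n = 3).

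Of the basement membrane chains at the labor stage, none met the criterion in limma, while Col4a3 and Col4a4 had an unadjusted p under 0.05. Col4a3 had 2.66, 3.40 and 2.70 FPKM at E15.5 against 2.25, 1.61 and 2.03 FPKM at E18.5, giving a log2 fold change of -0.55 (SE 0.19, limma adjusted p = 0.317). Col4a4, its partner in the same collagen IV, had 2.0, 1.84 and 1.26 FPKM at E15.5 against 1.17, 0.991 and 1.08 FPKM at E18.5, giving a log2 fold change of -0.59 (SE 0.23, limma adjusted p = 0.370). Both kept their groups apart. Col4a1 had 172 ± 51.1 against 188 ± 11.5 FPKM, Col4a2 had 99.6 ± 28.5 against 111 ± 3.83 FPKM, Col4a5 had 18.6 ± 1.17 against 16.2 ± 3.66 FPKM and Col4a6 had 6.73 ± 0.263 against 4.94 ± 1.98 FPKM for E15.5 against E18.5 (SD, n = 3). The ratio of Col4a1 to Col4a2 held between 1.65 and 1.77 in all 6 libraries of this stage and between 1.21 and 1.52 in all 6 of the implantation stage, in tables that were normalized separately.

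The other chains of at least 1 FPKM at the labor stage did not meet the criterion. Col14a1 had 32.6, 32.0 and 33.8 FPKM at E15.5 against 23.3, 23.5 and 28.6 FPKM at E18.5, with no overlap and a log2 fold change of -0.39 (SE 0.13, limma adjusted p = 0.30). Col12a1 also did not overlap, at 34.2 ± 4.07 against 23.1 ± 8.41 FPKM (SD, n = 3) and a log2 fold change of -0.64. Col15a1 (35.2 against 26.7 FPKM on average), Col16a1 (22.1 against 22.9 FPKM), Col18a1 (7.06 against 9.0 FPKM), Col8a1 (1.71 against 1.46 FPKM), Col8a2 (1.22 against 1.04 FPKM), Col10a1 (1.17 against 1.24 FPKM) and Col7a1 (1.06 against 0.960 FPKM) overlapped between the days. The Col20a1 row, with 2.06 to 2.61 FPKM, is shared with 9230112E08Rik. In all, 1 tested chain had every E18.5 library above every E15.5 library and 8 had every one below, beside 10.9% and 8.96% of all tested rows. The make-up was similar on both days, with fibrillar chains at 62.4% to 65.8% of the summed collagen FPKM at E15.5 against 61.6% to 62.8% at E18.5.

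Whether the effect of the day differed between the stages was tested in limma as the log2 fold change of the implantation stage minus that of the labor stage, over the 12 libraries and the 21393 rows that could be paired and tested. Of 35 chains, 5 were higher and 5 lower by the criterion, 28.6% beside 11.9% of all rows (5.42% higher and 6.51% lower). Here 1 chain, Col11a1, passed the adjusted p, beside 2.7% of all rows. This chain passed the filter on low values at the implantation stage through the E4.5 libraries alone. Col11a1 had a limma log2 fold change of -2.99 at implantation and -0.57 at the labor stage, so the difference was -2.41 (SE 0.56, limma adjusted p = 0.0488). It ran from -2.74 to -1.93 with each library left out in turn, with an adjusted p of 0.0252 to 0.125, under 0.05 in 4 of the 12 fits. With a pseudocount of 1 in place of 0.1 the difference for Col11a1 was -0.65 and met neither the criterion nor the adjusted p, so its size and its call rest on the scale used at low FPKM.

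The other chains with a negative difference between the stages were Col24a1 (-2.03), Col18a1 (-1.40), Col23a1 (-1.35) and Col27a1 (-1.12), and those with a positive difference were Col9a3 (2.01), Col8a2 (1.45), Col11a2 (1.40), Col5a2 (1.22) and Col3a1 (1.08). At the implantation stage the groups of Col3a1, Col5a2, Col11a2 and Col8a2 did not overlap, with E0.5 above E4.5, and at the labor stage those of Col5a2 and Col9a3 did not overlap, with E18.5 below E15.5. With a pseudocount of 1 the criterion was lost by Col11a1, Col11a2 (0.53), Col9a3 (0.55), Col8a2 (0.80), Col23a1 (-0.76) and Col27a1 (-0.84), 6 of the 10 chains. At the pseudocount of 0.1, with each of the 12 libraries left out in turn, Col11a1, Col11a2 and Col9a3 met the criterion every time, Col5a2 and Col27a1 failed without E4.5 replicate 3 (0.74 and -0.88), and Col3a1 failed without E0.5 replicate 2 (0.99), E15.5 replicate 3 (0.98) or E4.5 replicate 3 (0.89). Col8a2 failed without E4.5 replicate 1 (1.17) or E18.5 replicate 2 (1.25). Col18a1 met it only without E0.5 replicate 3, E15.5 replicate 2, E15.5 replicate 3 or E4.5 replicate 3, Col23a1 without E0.5 replicate 3, E15.5 replicate 2 or E4.5 replicate 3, and Col24a1 without E0.5 replicate 3, E18.5 replicate 2 or E4.5 replicate 3, and over all 12 fits the differences of these 3 chains ran from -2.78 to -0.99.

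Several chain genes lie beside each other in the genome, and their values are given side by side. Col4a1 and Col4a2 start head to head on chromosome 8 with an overlap of 85 bp in RefSeq, and had log2 fold changes of -0.04 and -0.09 at implantation and 0.17 and 0.21 at the labor stage. Col4a4 and Col4a3 start head to head on chromosome 1 with an overlap of 114 bp, with -1.23 and -1.06 at implantation and -0.59 and -0.55 at the labor stage. Col4a6 and Col4a5 start head to head on chromosome X with 1.27 kb between them, with -1.36 and -0.88 and then -0.52 and -0.23. Col6a2 and Col6a1 follow each other on chromosome 10 with 85.2 kb between them, with 0.22 and 0.18 and then 0.31 and 0.44. In each of these pairs the signs were equal within a stage, in the fits over all 6 libraries. Without E15.5 replicate 1 the signs of Col6a2 (-0.15) and Col6a1 (0.031) differed at the labor stage. Col3a1 and Col5a2 end 24.6 kb apart on chromosome 1 and had 0.82 and 0.78 at implantation and -0.26 and -0.30 at the labor stage. Col6a6, Col6a5 and Col6a4 follow each other on chromosome 9 with gaps of 27.8 and 27.9 kb, with -0.63, -2.40 and 1.43 at implantation and -0.0022, 0.21 and 1.11 at the labor stage. The -2.40 of Col6a5 rests on E4.5 replicate 3, without which it was 0.79, the sign of Col6a4. Where genes overlap without a stated strand of the library, reads of the overlap cannot be assigned to one of them.

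Among 29 genes for the folding, processing and crosslinking of collagen, 2 were higher at E0.5 and 3 were lower by the criterion, beside 6.37% and 5.82% of all tested rows, and at the labor stage none met it in limma. Lox, the lysyl oxidase that starts crosslinking, had 26.8, 27.2 and 37.2 FPKM at E0.5 against 5.78, 11.2 and 3.18 FPKM at E4.5, giving a log2 fold change of 2.19 (SE 0.46, edgeR adjusted p = 0.0772). P3h1, which hydroxylates prolines of fibrillar chains, had 1.98, 2.42 and 2.55 FPKM at E0.5 against 7.42, 6.66 and 7.55 FPKM at E4.5, giving a log2 fold change of -1.63 (SE 0.19, edgeR adjusted p = 0.0233). Both kept their groups apart. Tll1, a protease that removes procollagen C-propeptides, had 0.504, 0.864 and 0.441 FPKM at E0.5 against 8.15, 8.03 and 1.76 FPKM at E4.5, giving a log2 fold change of -3.31 (SE 0.64, edgeR adjusted p = 0.0662). Pcolce, which enhances that cleavage, stood at -2.0 with 30.1 FPKM in E4.5 replicate 3 and 2.97 to 5.12 FPKM in the other 5 libraries, and at -0.58 without that library. Its criterion was also lost without any 1 of the E0.5 libraries (-2.10 to -1.95) and in limma (-1.43). Colgalt2, which adds galactose to hydroxylysine, was higher at E0.5 with a log2 fold change of 1.45 (SE 0.41, edgeR adjusted p = 0.145).

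Of 8 collagen receptor genes, Itga2 and Itga11, the alpha chains of collagen-binding integrins, were higher at E0.5 by the criterion, beside 6.37% of all tested rows, and Itga11 was higher at E18.5, beside 3.11%. Itga11 had 4.16, 5.59 and 2.74 FPKM at E0.5 against 0.513, 0.452 and 2.69 FPKM at E4.5, with a log2 fold change of 1.81 (SE 0.72, edgeR adjusted p = 0.268). Itga2 had 4.15 to 5.48 FPKM at E0.5 against 1.23 to 4.02 FPKM at E4.5, with a log2 fold change of 1.06 (SE 0.44, edgeR adjusted p = 0.284). In both genes E4.5 replicate 3 lay close to the E0.5 mice, and without it the log2 fold changes were 1.73 for Itga2 and 3.08 for Itga11. Both lost the criterion with any other library left out (0.77 to 1.12 for Itga2 and 1.42 to 2.02 for Itga11), and Itga2 lost it with RLE size factors (1.06) and with the filter raised to 1 FPKM (1.07). At the labor stage Itga11 had 0.292, 0.483 and 0.853 FPKM at E15.5 against 1.71, 1.16 and 0.803 FPKM at E18.5, groups that overlapped, with a log2 fold change of 1.08 (SE 0.41, limma adjusted p = 0.365). It lost the criterion without E15.5 replicate 1 (0.77), E15.5 replicate 2 (1.06), E18.5 replicate 1 (0.83) or E18.5 replicate 2 (1.09), and with a pseudocount of 1 (0.53).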

How the data were processed

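Whole uteri of 12 mice were sequenced with paired ends. By the study's methods, rRNA was removed and reads were trimmed with Cutadapt and aligned with Bowtie2 and Tophat2, whereas the labels describe poly(A) selection and the submitters' processing notes name HISAT2 2.0 and StringTie 1.3.0, with builds mm8 and mm10. Positions fit build GRCm38, in which each of the 44 chains overlaps its RefSeq gene. The FPKM values were estimated by the authors with StringTie and Ballgown and deposited as 1 table per stage, each normalized on its own. Counts were deposited by the authors for the implantation stage alone, and how reads were assigned is not given in the sources used here. The value 0.0001 FPKM in that table stands for 0 and was set to 0. Rows with a locus ID but no gene name, which held 1.02% to 1.86% of the counts, were kept in library sizes and tests.

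E0.5 was compared with E4.5 by edgeR 4.0.16 on counts (TMM factors, quasi-likelihood F-test) and E18.5 with E15.5 by limma 3.58.1 with trend on log2(FPKM + 0.1), which understates the change of low genes, in R 4.3.3. The standard error in edgeR is the log2 fold change divided by the square root of F. Rows were tested from a 6-library mean of 0.1 FPKM upward, and p-values were adjusted by Benjamini and Hochberg over all tested rows of a table. The difference between the stages was fitted with limma over rows of the 2 tables that share Ensembl transcripts (32719 pairs). The study's criterion was a log2 fold change of 1 or more in either direction and p under 0.05. No exact test on single values was used, since 3 mice against 3 cannot give a p under 0.1. The fits were also run on simulated data with known fold changes, and the outcome is not given here.

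Named with their values were all chains with a mean of at least 1 FPKM in a stage or past the criterion, and assembly and receptor genes past the criterion, at most 6 per stage. The members and lists were chosen with earlier results of these data known. Replicate numbers do not pair the mice, so no block was fitted in the main tests. Alternatives were RLE size factors, DESeq2 1.42.0, limma on FPKM, a mean of at least 1 FPKM or no filter, pseudocounts of 1 and 0.01, scaling to the 75th percentile, a replicate block, the adjusted p, no fold change minimum and each library left out. Of the value columns of samples, 0 were left unused. Figures were drawn with matplotlib 3.10.9.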

Additional observations from a re-analysis of the deposited data

Results flagged for a closer look

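The step in Col11a1 from day to day was unequal in the 2 stages, by a limma test of the difference itself. The log2 fold change of E0.5 relative to E4.5 less that of E18.5 relative to E15.5 was -2.41 (standard error 0.56, limma adjusted p = 0.0488). All 3 E4.5 libraries lay above all 3 E0.5 libraries, and all 3 E15.5 libraries lay above all 3 E18.5 libraries, so the days were ordered alike within each pair and the size of the step differed. At the implantation stage Col11a1 passed the filter on low values through the E4.5 libraries alone, with 0.0991 FPKM on average at E0.5. The adjusted p lay between 0.0252 and 0.125 with each library left out in turn. With a pseudocount of 1 in place of 0.1 the difference was -0.65 and met neither the criterion nor the adjusted p.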

How the results depend on the processing

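Between E0.5 and E4.5, the 4 higher and 9 lower chains became 0 and 1 once the p had to be the adjusted one. The lower chains became 5 with a mean of at least 1 FPKM, which tests fewer genes, beside 5.49% of all rows. The count past the adjusted p was 1 in edgeR, 10 in DESeq2 and 0 in limma, beside 1.22%, 9.74% and 1.51% of all rows. With each library left out the counts ran from 1 to 3 higher, 6 to 11 lower and 0 to 10 past the adjusted p, beside 5.32% to 7.9%, 4.73% to 6.37% and 0% to 6.19% of all rows. Between E18.5 and E15.5, the 1 higher and 2 lower chains became 0 and 0 with the adjusted p. The lower count was 0 with a mean of at least 1 FPKM or a pseudocount of 1, beside 2.01% and 0.802% of all rows. It was 5 without a fold change minimum, where 12.2% of all rows passed in either direction. Leaving out libraries gave 0 to 1 higher and 0 to 3 lower, beside 2.19% to 4.08% and 2.57% to 3.66% of all rows. For the difference between the stages, 5 chains were higher, 5 lower and 1 past the adjusted p, beside 5.42%, 6.51% and 2.7% of rows. A mean of at least 1 FPKM gave 3, 2 and 0, beside 4.27%, 5.87% and 3.89%. A pseudocount of 1 gave 2, 2 and 0, beside 2.64%, 2.67% and 3.14%. Leaving out libraries gave 3 to 7, 2 to 6 and 0 to 6, beside 4.82% to 6.36%, 5.8% to 7.81% and 0.874% to 5.91%. The cause of these shifts was not tested.

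No source describes the replicate numbers as a pairing, and deviations of same-numbered libraries correlated at -0.063 to 0.018. With the replicate block, 3 chains were higher and 8 lower between E0.5 and E4.5, beside 5.62% and 4.81% of all rows. The adjusted p was met by 0 chains there and by 0% of the rows, so this loss was not specific to the chains. Between E18.5 and E15.5 the block gave 1 higher and 3 lower, beside 2.96% and 3.04%. For the difference between the stages the block gave 5 higher, 2 lower and 0 under the adjusted p, beside 5.25%, 6.3% and 0.323%.

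The chains whose sign turned when 1 library was left out did not meet the criterion. Between E0.5 and E4.5 their log2 fold changes ran over the fits from -0.018 to 0.16 for Col10a1, -0.060 to 0.90 for Col14a1, -0.60 to 0.038 for Col16a1, -0.23 to 0.80 for Col17a1, -0.19 to 0.25 for Col4a1, -0.27 to 0.24 for Col4a2, -0.054 to 0.38 for Col6a1, -0.082 to 0.62 for Col6a2, -0.17 to 0.60 for Col6a3 and -2.96 to 0.79 for Col6a5. Between E18.5 and E15.5 they ran from -0.067 to 0.13 for Col10a1, -0.17 to 0.27 for Col16a1 (-0.028 with scaling to the 75th percentile), -0.13 to 0.49 for Col1a1, -0.057 to 0.50 for Col1a2, -0.16 to 0.0030 for Col20a1, -0.075 to 0.37 for Col4a1, -0.046 to 0.38 for Col4a2, -0.025 to 0.44 for Col5a3, -0.15 to 0.58 for Col6a2, -0.41 to 0.059 for Col6a3, -0.20 to 0.15 for Col6a6 and -0.42 to 0.25 for Col7a1. With only 3 mice per day and an unknown depth at the labor stage, a difference smaller than the spread between mice was not detectable here.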

Other observations

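Besides the annotated rows, the tables hold rows without an Ensembl transcript that carry the name of a collagen gene, 51 in the implantation table and 8 in the labor table. They do not belong to the 44 chains. At the implantation stage 5 of them were higher at E0.5 by the study's criterion, all named for Col8a1, and 11 were lower, 5 named for Col27a1, 3 for Col11a1, 2 for Col22a1 and 1 for Col4a6, beside 6.37% and 5.82% of all tested rows. Of these 16 rows, 5 passed the filter on low values through 1 day alone, and all 16 carry only 5 gene names, so rows of 1 gene may not be independent (12 of the 51 rows are named for Col8a1 and 9 for Col27a1). By edgeR none passed the adjusted p, and 16 had an unadjusted p under 0.05. The annotated row of Col8a1 had a log2 fold change of 0.77 and did not meet the criterion. In the labor table none of the 8 met it by limma, and 1 row named for Col4a1 had an unadjusted p under 0.05 with a log2 fold change of 0.35.

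The type of row that these are (intron reads, fragments of a transcript or separate transcripts) was not tested. The Col4a6 row that met the criterion lies inside the gene but on the opposite strand, plus against minus. The Col8a1, Col11a1 and Col22a1 rows that met it carry no strand. The E0.5 libraries were at 0 in a Col11a1 row and in a pair of Col22a1 rows that had 0.259 to 1.85 FPKM and 0.0858 to 2.70 FPKM in the E4.5 libraries. The E4.5 libraries were at 0 in a Col8a1 row that had 0.181 to 1.89 FPKM in the E0.5 libraries.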
